A study of Mus musculus with 2 samples.

Results

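Among the stromal fibroblasts of the mouse uterus, the cells described here were those in which transcripts of Cilp, Sfrp4, Gpr83 and 4 related marker genes were found together. A cell barcode was a member when it met 5 conditions in the deposited counts. It had at least 500 genes detected and at most 20% mitochondrial counts, and Col1a1, Col1a2, Col3a1, Dcn and Lum together made up at least 0.5% of its unique molecular identifiers (UMIs, each standing for 1 captured transcript). It held no UMI of Ptprc, the pan-leukocyte gene, or of Epcam, an epithelial adhesion gene. It held at least 3 of the 7 genes Gpr83, Cilp, Adgrd1, Sfrp4, Rnase10, Asb5 and Tnfrsf11b, called the rule genes below. It held fewer than 3 of 7 genes headed by Cyp26b1 (with Prrx2, Dio2, P2ry14, Nrg2, Aldh1a2 and Saa3) and fewer than 3 of 7 headed by Inmt (with Myoc, C1qtnf3, Pamr1, Scara5, Ces1d and Scn7a), which mark 2 other fibroblast groups. These conditions were met by 400 of 8603 cells, 39 of 3653 in the control library and 361 of 4950 in the conditional knockout (cKO) library. Of the 2266 cells that passed the fibroblast conditions, 1866 were not members and are called the other fibroblasts.

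The study profiled whole uteri of female mice aged 6 months in droplets, 1 cell at a time, from the 3′ ends of transcripts. Both groups carried floxed Prickle1 alleles (Prickle1 f/f, the control), and the cKO mice carried Ltf-cre as well (Prickle1 f/f Ltf-cre). Each group was 1 library made from 3 pooled mice, so genotype, animals and library preparation cannot be told apart, no test between groups was possible, and every interval below is a 95% interval of counting error only. Cre from the Ltf (lactoferrin) locus is used to recombine genes in the uterine epithelium, so the fibroblasts were not the cells in which the deletion was directed. A genotype entry of the labels names both samples C57BL/6J wild-type, which differs from the titles from which the groups were taken.

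Stromal fibroblasts of the endometrium lie under the epithelium and between the glands, respond to oestradiol and progesterone through their own receptors, and deposit the collagen matrix of the uterine wall. They also send signals to the epithelium and to immune cells, among them Wnt modulators, growth factors and chemokines. In rodents they change into decidual cells during implantation.

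The rule genes have different known roles. Cilp encodes cartilage intermediate layer protein, a matrix glycoprotein that binds TGF-beta1. Sfrp4 encodes a secreted frizzled-related protein that binds Wnt ligands, and Tnfrsf11b encodes osteoprotegerin, the soluble decoy receptor for RANKL. Gpr83 and Adgrd1 encode G-protein coupled receptors, the second of the adhesion class, Asb5 an ankyrin repeat protein with a SOCS box, and Rnase10 a member of the ribonuclease A family. Since members were chosen on these genes being detected together, the promoters of 3 of them are shown to let a reader compare the sequences in front of their start sites. RefSeq (GRCm38.p6) promoter entries were matched for 4 of the 7 rule genes. The 3 windows below are the 250 bases before an annotated start on the plus strand, at chr9:65264930-65265179 for Cilp, chr9:14859960-14860209 for Gpr83 and chr14:51007501-51007750 for Rnase10, in lower case with motif matches in capitals.
Cilp: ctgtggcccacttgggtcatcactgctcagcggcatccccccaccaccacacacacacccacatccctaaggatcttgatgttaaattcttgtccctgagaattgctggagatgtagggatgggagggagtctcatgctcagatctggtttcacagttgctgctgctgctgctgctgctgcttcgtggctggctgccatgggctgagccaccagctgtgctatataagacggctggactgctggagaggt
Gpr83: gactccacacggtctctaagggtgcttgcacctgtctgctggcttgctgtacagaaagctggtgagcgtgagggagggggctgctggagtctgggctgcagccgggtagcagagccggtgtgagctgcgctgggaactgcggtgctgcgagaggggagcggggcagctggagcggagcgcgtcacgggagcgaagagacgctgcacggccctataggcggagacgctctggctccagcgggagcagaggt
Rnase10: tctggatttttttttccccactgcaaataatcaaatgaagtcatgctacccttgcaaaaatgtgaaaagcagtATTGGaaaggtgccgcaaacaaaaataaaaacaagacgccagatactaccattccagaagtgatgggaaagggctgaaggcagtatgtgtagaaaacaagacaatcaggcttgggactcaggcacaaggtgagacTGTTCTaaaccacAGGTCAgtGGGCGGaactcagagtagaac

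The motifs searched on both strands were TATAAA, known as the TATA box, CCAAT, the site of nuclear factor Y, GGGCGG, the GC box, AGAACA, a half-site of the glucocorticoid and progesterone receptor class, and AGGTCA, an oestrogen receptor half-site. None of these motifs was found letter for letter in the Cilp and Gpr83 windows. Other forms of a motif were not searched, and the Cilp window holds tatataag, a TATA-like stretch, near its start-site end. The Rnase10 window held ATTGG, the reverse complement of the nuclear factor Y motif, from 177 to 173 bases before the start, TGTTCT, the reverse complement of the glucocorticoid and progesterone half-site, from 42 to 37 bases before it, AGGTCA from 29 to 24 bases before it and GGGCGG from 21 to 16 bases before it. Among 32851 mouse promoter windows of the same length, 12.4% held TATAAA, 33.8% CCAAT, 32.7% GGGCGG, 16.1% AGAACA and 14% AGGTCA on either strand. These matches are a description of the letters in the windows. In the GRCm38 annotation, Cilp spans bases 65265180 to 65280605 of chromosome 9, plus strand, Gpr83 14860210 to 14870789 of chromosome 9, plus strand, and Sfrp4 19623104 to 19632994 of chromosome 13, plus strand. Adgrd1 spans 129096750 to 129204599 of chromosome 5, plus strand, and Tnfrsf11b 54250619 to 54278484 of chromosome 15, minus strand.

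In all, 45035801 UMIs were counted in control and 57145553 in cKO. The 2 libraries shared 5 cell barcodes, none of them a member. Members were deeper than other fibroblasts, with a median of 17292 UMIs in control and 17797 in cKO, against 7463.5 and 12624. Their summed counts were 722794 and 6807932 UMIs, and levels are given as UMIs per 1000000 summed UMIs of a population (CPM), so that single cells weigh heavily in the control sum. Prickle1 had 3 UMIs in control members (4.15 CPM) and 40 in cKO members (5.88 CPM). Since 3′ ends were counted, an exon removed upstream would not be seen, so these values check neither label, and Ltf had 4 and 0 UMIs in the members.

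Of 12 fibroblast genes listed, 5 (Dcn, Lum, Col1a1, Col1a2 and Col3a1) belong to the collagen condition of the rule, so their presence was fixed by the choice of members. Dcn (decorin) had 6132 CPM in the 39 control members and 6403 CPM in the 361 of cKO and Lum (lumican) 2522 and 1830 CPM. Among the 7 genes the rule did not use, Pdgfra, the fibroblast receptor for platelet-derived growth factor, had 708 and 746 CPM. Of the uterine patterning genes, Hoxa10 had 44.3 and 56.4 CPM and Hoxa11 15.2 and 15.1 CPM. Hand2, a progesterone-regulated stromal transcription factor, was near 0, with 2 UMIs in control and 29 in cKO members (2.77 and 4.26 CPM). None of these 7 genes was at 0 in either library.

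Markers of other cell types were summed over the members. The 10 leukocyte genes summed to 6.92 CPM in control members and 18.9 CPM in cKO members, with 7 and 1 of them at 0, where Ptprc at 0 was a condition of the rule. The 10 epithelial genes summed to 51.2 and 24.5 CPM, with 3 and 2 of them at 0, Epcam by the rule. Of the mesothelial genes, Msln was at 0 in both libraries and Upk3b had 0 and 13 UMIs, while Wt1, which stromal cells also transcribe, had 89.9 and 88.0 CPM. The 8 smooth muscle genes summed to 508 and 668 CPM, against 592 and 721 CPM in other fibroblasts, and most of it was Des, which encodes the intermediate filament desmin, at 385 and 388 CPM. Of the 7 measured, 3 were at least 2-fold higher in cKO members and none lower (7.18% and 5.68% of all genes), with a median log2 ratio of 0.81, against 0.24 in other fibroblasts. The 3 were Acta2, the smooth muscle actin gene (55.3 and 146 CPM), Myh11, the smooth muscle myosin gene (5.53 and 29.4 CPM), and Actg2, another smooth muscle actin gene (4.15 and 15.4 CPM). Cell-free barcodes held more of the list, 1062 CPM in control and 2357 CPM in cKO. Free RNA, estimated from epithelial genes, was 1.13% of the UMIs of control members and 1.35% of those of cKO members. Its part in the values of the 3 genes was not tested. In cKO, 1 member held 76.5% of the Myh11 UMIs and 66.7% of those of Actg2. A simulated-doublet score above 0.25 was found in 0 of the 39 control members and 3 of the 361 cKO members.

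Members were a larger share of the cKO fibroblasts than of the control fibroblasts. They were 39 of 775 stromal fibroblasts in control (5.03%, exact binomial interval 3.60 to 6.82) and 361 of 1491 in cKO (24.2%, 22.1 to 26.5), a ratio of 4.81 (3.50 to 6.62). Of all cells they were 1.07% (0.760 to 1.46) and 7.29% (6.58 to 8.05). The other fibroblast groups differed in both directions. Cells of the Cyp26b1 list were 13 of 775 in control (1.68%) and 247 of 1491 in cKO (16.6%). Cells of the Inmt list were 198 (25.5%) and 55 (3.69%). Each group held at least 3 genes of its own list, fewer than 3 rule genes and fewer than 3 genes of the third list. Their shares are thus tied to the member share, and were not taken at equal depth. With 1 library each, these shares have no replicate check.

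Depth bears on a rule that counts detected genes, since the cKO fibroblasts were deeper. Every cell of at least 2000 UMIs was therefore thinned to 2000 UMIs and all the count conditions were applied again. Since these include the collagen sum and the absence of Ptprc and Epcam, the fibroblasts counted changed as well: 62 control and 169 cKO cells entered them and 27 and 59 left. Then 7 of 621 control cells (1.13%, 0.454 to 2.31) and 144 of 1485 cKO cells (9.70%, 8.24 to 11.3) were members. After thinning to 5000 UMIs they were 23 of 464 (4.96%) and 270 of 1284 (21.03%), a ratio of 4.24 (2.81 to 6.41). In that case 28 control and 88 cKO cells entered the fibroblasts and 22 and 25 left. Of the fibroblasts before thinning, 317 control and 270 cKO cells were too shallow for 5000 UMIs, and 189 and 116 for 2000. The cKO share was the higher of the 2 in each bin of 2000 to 40000 UMIs, for example 12 of 212 (5.66%) against 178 of 577 (30.8%) between 10000 and 20000 UMIs. Between 5000 and 10000 UMIs the interval of the ratio, 1.93 (0.958 to 3.88), included 1. Above 40000 UMIs, where there were 8 control and 57 cKO fibroblasts, the members were 2 control cells (interval 3.19% to 65.1%) and 9 cKO cells (15.8%, 7.48 to 27.9).

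**Figure D1:**
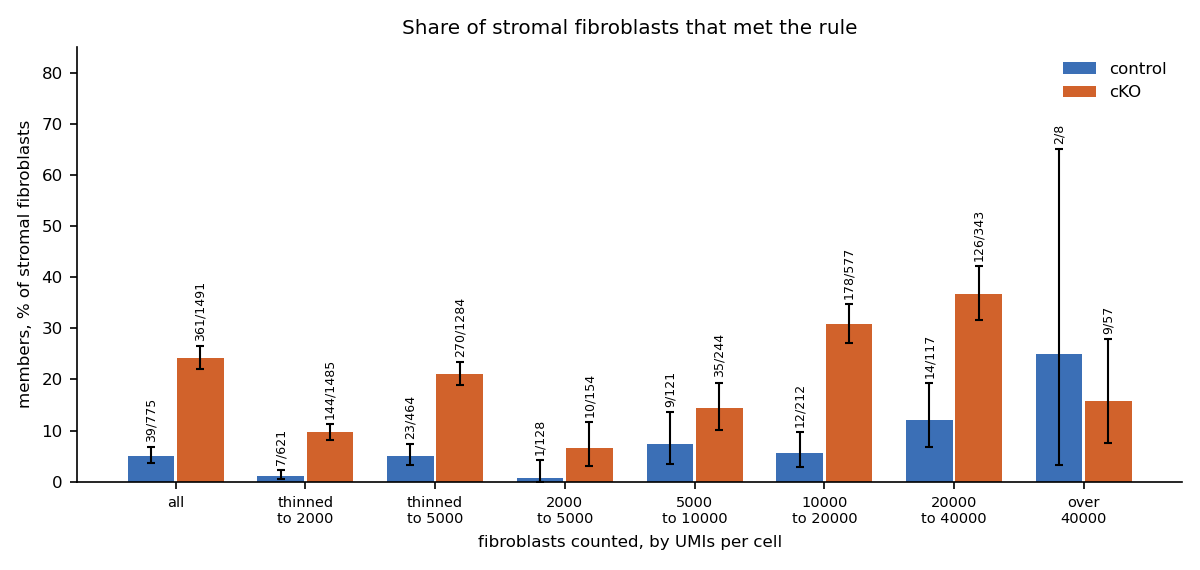
Members as a percentage of stromal fibroblasts (vertical axis) in the control (blue) and cKO (orange) library, for all fibroblasts, after thinning each cell to 2000 or 5000 UMIs, and by UMIs per cell without thinning. Numbers over the bars are members over fibroblasts counted and the error bars are exact 95% binomial intervals; the cKO bar is the taller in all but the bin above 40000 UMIs, which holds 8 control cells.

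The threshold of 3 rule genes cut through a continuous range. Among fibroblasts under both other limits, 49 control and 177 cKO cells held 2 rule genes and lay just outside, and 32 and 161 held 3 and lay just inside. At least 4 were held by 7 control members (6 cells with 4 and 1 cell with 5) and by 200 cKO members (116 with 4, 66 with 5, 17 with 6 and 1 with 7). Median depth moved with this number: in cKO it was 3775.5 UMIs at 0 rule genes, 12099 at 2, 16390 at 3 and 18316 at 4. The limits on the other lists also removed cells: at least 3 rule genes were held by 70 control and 520 cKO fibroblasts, of which 28 and 57 were over the Inmt-list limit and 3 and 106 over the Cyp26b1-list limit.

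The levels of the rule genes describe the choice of members and support nothing further. Sfrp4 was the rule gene found most often, with a UMI in 87.2% of control and 87.3% of cKO members, and its summed level was 278 CPM (241 to 319) in control and 604 CPM (586 to 623) in cKO. Cilp was found in 66.7% and 67.6% of members at 361 and 386 CPM. Tnfrsf11b was found in 59.0% and 62.0% at 162 and 313 CPM. These 3 genes, and Adgrd1 described below, were found in more than 1 of 2 members in each library.

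Gpr83 was found in fewer members and at high level where it was found. It had a UMI in 23.1% of control and 44.6% of cKO members, its median over cells was 0 CPM in both libraries, and its highest cell had 4399 and 5834 CPM. Its summed level was 196 CPM in control, where 1 cell held 45.8% of its UMIs, and 442 CPM in cKO. Adgrd1 showed the opposite form, with a UMI in 51.3% and 78.4% of members at only 47.0 and 185 CPM, and a highest cell of 335 and 1670 CPM. Asb5 was found in 25.6% and 26.6% of members at 147 and 91.1 CPM, and Rnase10 was the rarest, in 7.69% and 17.5% at 5.53 and 21.9 CPM.

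Leukocyte barcodes, which should lack these transcripts, held a UMI of any 1 rule gene in at most 1.66% of cells, at a median of 6238 UMIs per cell in control and 5426.5 in cKO. Thinning the members to 2000 UMIs lowered the shares, for Sfrp4 to 42.1% and 47.8%, for Gpr83 to 13.2% and 30.2% and for Adgrd1 to 7.89% and 27.4%. Free RNA in cell-free barcodes held more of these genes in cKO than in control: Gpr83 had 1.94 and 52.5 CPM there and Adgrd1 1.94 and 23.6 CPM. Gpr83 was also higher in the other fibroblasts of cKO, at 12.4 CPM in the control library and 152 CPM in that of cKO, values that the rule also bears on.

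**Figure D2:**
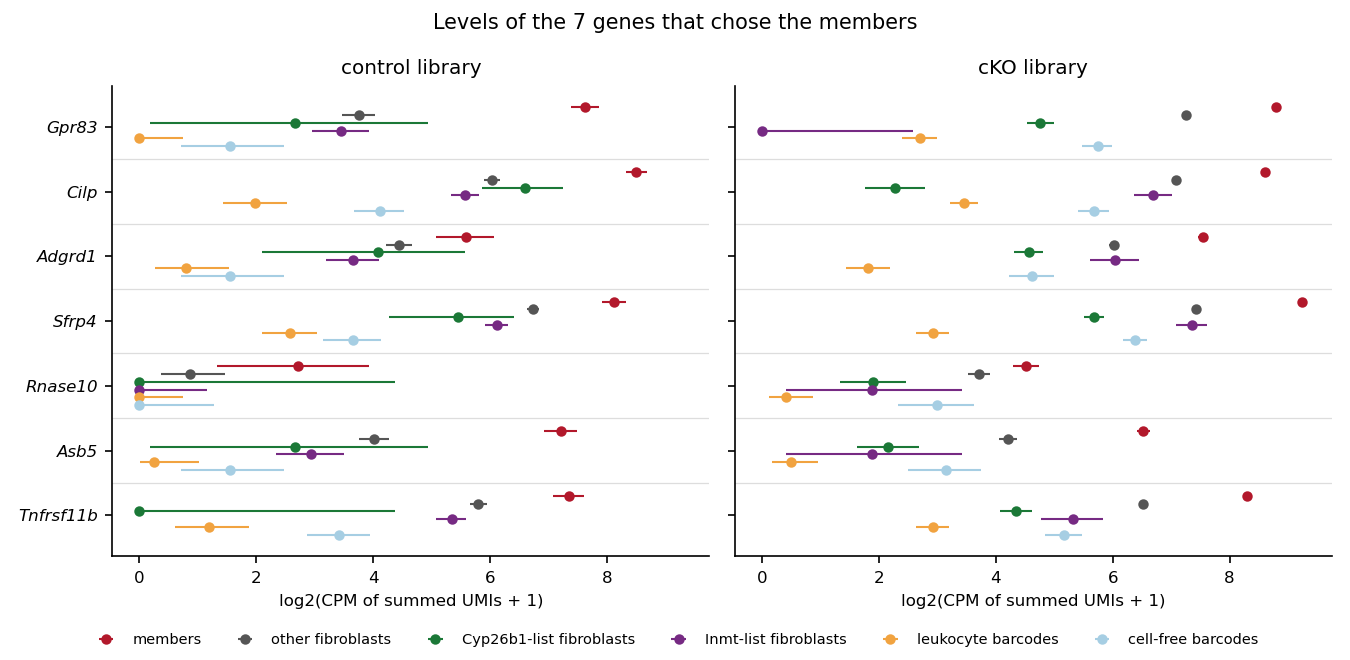
Summed level of each rule gene, as log2(CPM + 1) with exact 95% Poisson intervals, in the control library (left) and the cKO library (right). Colours give 6 populations of barcodes; the members (red) lie furthest to the right for each gene, which the rule brings about, and leukocyte barcodes lie far to the left of them.

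Outside the rule, few genes set the members apart upward. Among 10075 genes with at least 30 UMIs in each library, 23 were at least 2-fold higher in members than in other fibroblasts in both libraries (0.228%) and 186 at least 2-fold lower (1.85%). Each library alone gave more: 395 higher (3.92%) and 981 lower (9.74%) in control, and 79 higher (0.784%) and 523 lower (5.19%) in cKO. The median log2 ratio over all of them was -0.03 in control and -0.08 in cKO. Because the rule was applied to the same cells, these are descriptions, and the other fibroblasts are a mixture that includes the Cyp26b1-list and Inmt-list cells.

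Secreted peptides and cytokine receptors were among the 12 genes ranked highest. Uts2, which encodes the vasoactive peptide urotensin 2, had 457 CPM in control members against 73.3 in other fibroblasts (6.23-fold, 5.41 to 7.15) and 98.3 against 32.2 in cKO (3.06-fold, 2.72 to 3.43). It came from few cells, 17.9% of control and 10.2% of cKO members. Penk, which encodes the opioid precursor proenkephalin, had 350.0 against 113 CPM in control (3.11-fold) and 429 against 199 CPM in cKO (2.16-fold). The receptor genes Il1rl1, for interleukin-33, and Il13ra1, for interleukin-13, were 2.26-fold and 2.59-fold higher in control members, and 2.42-fold and 2.75-fold higher in cKO members. Il13ra1 was found in 56.4% and 66.8% of members, against 21.7% and 29.6% of the shallower other fibroblasts.

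The other 8 genes have various known roles. Col14a1, a fibril-associated collagen, was 2.57-fold higher in control and 2.05-fold higher in cKO members, and was found in 69.2% and 91.1% of them. Aspn, which encodes the small leucine-rich proteoglycan asporin, had 217 against 43.3 CPM in control (5.02-fold) and 37.8 against 19.1 CPM in cKO (1.97-fold). Pappa, a protease that cleaves insulin-like growth factor binding proteins, was 2.17-fold and 2.07-fold higher, and Il11, a cytokine needed for decidualisation, 2.84-fold and 1.95-fold. Pi15, a secreted peptidase inhibitor of the CAP family, was 3.02-fold and 2.04-fold higher. Slco2a1, the prostaglandin transporter, was 2.08-fold and 1.89-fold higher, Tm4sf1, a tetraspanin-like membrane protein gene, 2.10-fold and 1.84-fold, and Fxyd5, an Na,K-ATPase regulator, 2.03-fold and 2.04-fold.

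Single cells carried part of these sums. In control members, 1 cell held 42.3% of the Tm4sf1 UMIs, 39.1% of those of Penk, 38.2% of those of Uts2 and 34.8% of those of Il1rl1. With the cell richest in each gene left out of the members in each library, the smaller of the 2 library ratios was 1.21 for Tm4sf1, 1.48 for Il1rl1, 1.48 for Slco2a1, 2.47 for Uts2 and 2.02 for Col14a1. The number of rule genes detected gave a graded picture for some of the 12. Fxyd5 had 71.2 CPM in cKO fibroblasts with 0 rule genes, 103 with 1, 146 with 2, 216 with 3 and 264 with 4 or more, and in control 72.3, 102, 130, 174 and 190 CPM. Il13ra1 and Col14a1 were likewise higher at each added rule gene in both libraries, by their summed values, while median depth moved in the same direction and its part was not tested. Il1rl1 gave no such order, and with 4 rule genes required its smaller log2 ratio was -4.10, that of Tm4sf1 -0.86 and that of Slco2a1 -1.23: control members with 3 rule genes had 771 CPM of Il1rl1 and the 7 with 4 or more had 14.6 CPM.

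**Figure D3:**
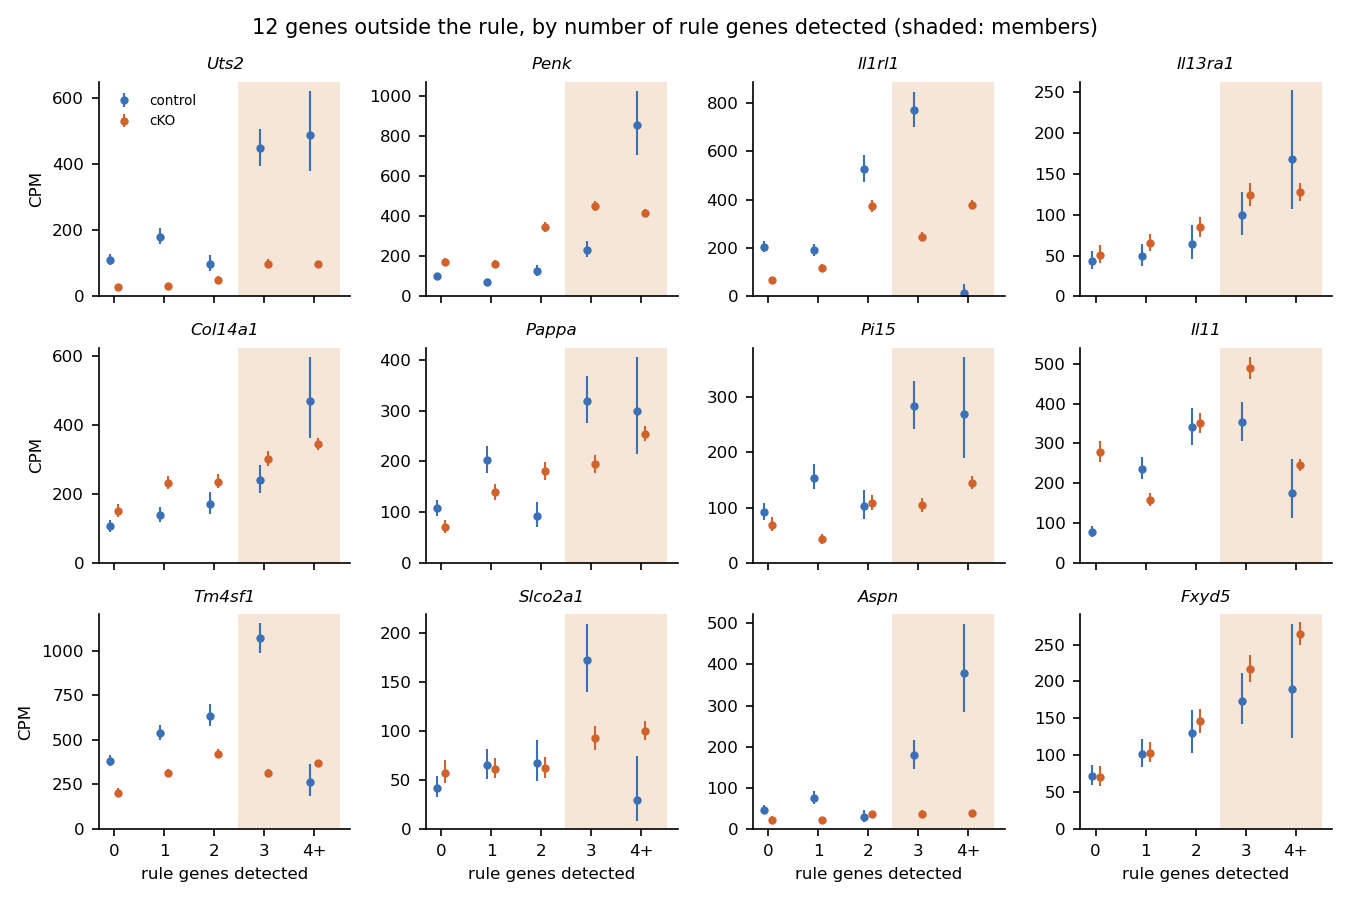
Summed level in CPM (vertical axes from 0) of 12 genes that were not used in the rule, in fibroblasts under both other limits, by the number of rule genes detected per cell, for control (blue) and cKO (orange), with exact 95% Poisson intervals. The shaded range holds the members; Fxyd5, Il13ra1 and Col14a1 climb across it in both libraries, whereas Il1rl1, Tm4sf1 and Slco2a1 are low in the 7 control members with 4 or more.

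The genes ranked lowest in members included those of the mesothelium, the cell layer on the outer surface of the uterus. Upk3b (uroplakin 3b) had 0 UMIs in control members against 24.2 CPM in other fibroblasts (at least 5.84-fold lower) and 1.91 against 20.6 CPM in cKO (10.8-fold lower). Msln (mesothelin) was at 0 in members of both libraries, against 12.9 and 7.46 CPM, at least 3.10-fold and 16.9-fold lower. Inmt-list cells had 0 UMIs of Msln in control and 1 in cKO, and Upk3b in cKO members had a ratio of 0.802 (0.343 to 1.88) to Cyp26b1-list cells, with all 13 UMIs in 1 member. In control members Upk3b was at least 23.1-fold lower than in Cyp26b1-list cells, whose 18 UMIs all lay in 7.69% of the 13 cells. Of 6 mesothelial genes, 5 were at least 2-fold lower in members in both libraries, against 1.85% of all genes. The fibroblast conditions held no limit on mesothelial genes, so the other fibroblasts could include such cells, and the part of these cells in the comparison was not tested.

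Not all of the genes ranked lowest were mesothelial. Zfp36l2, an RNA-binding protein gene that promotes decay of AU-rich transcripts, had 92.7 CPM in control members against 320 in other fibroblasts (3.45-fold lower, 2.70 to 4.46) and 92.7 against 202 CPM in cKO (2.18-fold lower, 2.00 to 2.37). Tob1, an antiproliferative gene, was 4.37-fold and 2.72-fold lower, and Fmo2, a flavin-containing monooxygenase gene, 19.9-fold (6.78 to 96.9, from 3 UMIs in control members) and 3.84-fold lower. Against the Cyp26b1-list fibroblasts of cKO alone, however, Fmo2 was 4.11-fold higher in members (1.90 to 10.2), at 6.02 against 1.46 CPM. Against the 13 such cells of control it was 84.5-fold lower (27.7 to 420). All 66 Fmo2 UMIs of those control cells lay in 7.69% of them, so that ratio does not describe the 13 cells as a group. Rorb, an orphan nuclear receptor gene, had 0 UMIs in control members against 15.7 CPM (at least 3.78-fold lower) and 7.64 against 98.2 CPM in cKO (12.9-fold lower). In the Cyp26b1-list fibroblasts of cKO, Rorb had 185 CPM, and in the Inmt-list fibroblasts 9.46 CPM, where the ratio of members to them was 0.807 (0.365 to 2.11). Tob1 stood at 280 CPM in cKO fibroblasts with 0 rule genes, 125 with 1, 96.7 with 2, 41.8 with 3 and 33.4 with 4 or more.

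The members were also set against each of the other fibroblast groups on its own. Among 8146 genes measured against the Inmt-list cells, 95 were at least 2-fold higher in both libraries (1.17%) and 158 lower (1.94%). Among 4595 measured against the Cyp26b1-list cells, of which control held only 13, 142 were higher (3.09%) and 74 lower (1.61%). The 12 genes ranked highest against all other fibroblasts did not all separate members from Inmt-list cells: in control 10 of them were at least 2-fold higher in members, and in cKO 3 were, while for 5 the cKO interval included 1. In cKO the ratio to Inmt-list cells was 1.11 (0.980 to 1.25) for Penk, 1.12 (0.973 to 1.29) for Il1rl1 and 0.819 (0.655 to 1.03) for Slco2a1. Pappa, at 1.19, and Il11, at 1.22, were also close to 1. The 3 genes were Uts2, Pi15 and Il13ra1, the last of them 3.71-fold (2.72 to 5.07) in control and 3.23-fold (2.23 to 4.85) in cKO. Against Cyp26b1-list cells, 10 of the 12 in control and 12 in cKO were at least 2-fold higher in members. Col14a1 separated members from Cyp26b1-list cells, 13.3-fold (5.13 to 49.4) and 12.3-fold (10.4 to 14.7), but not from Inmt-list cells in cKO, where the ratio was 0.914 (0.805 to 1.04). Aspn was 7.99-fold higher than in Inmt-list cells in control and 1.16-fold (0.765 to 1.85) in cKO.

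Within the members, cKO and control differed by at least 2-fold in 677 genes that were higher (7.18%) and 536 that were lower (5.68%) of 9435 with at least 30 UMIs. The median log2 ratio of cKO to control was -0.02 and its median size 0.35. In the other fibroblasts 5.4% of genes were at least 2-fold higher and 5.05% lower in cKO. Their mix of Inmt-list and Cyp26b1-list cells differed between the libraries, and its part in their ratios, here and below, was not tested. Of 673 genes higher in members and also measured in other fibroblasts, 132 were at least 2-fold higher there too, and of 535 lower in members, 83 were lower there too. With 39 control cells, most genes near the 30 UMI limit rest on few counts in control. The limit is on the sum of both libraries, and members held 722794 UMIs in control and 6807932 in cKO. A gene low in control could thus be measured through cKO alone more easily than the reverse. Counts of genes higher and lower, here and in the lists below, are therefore not on an equal footing.

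**Figure D4:**
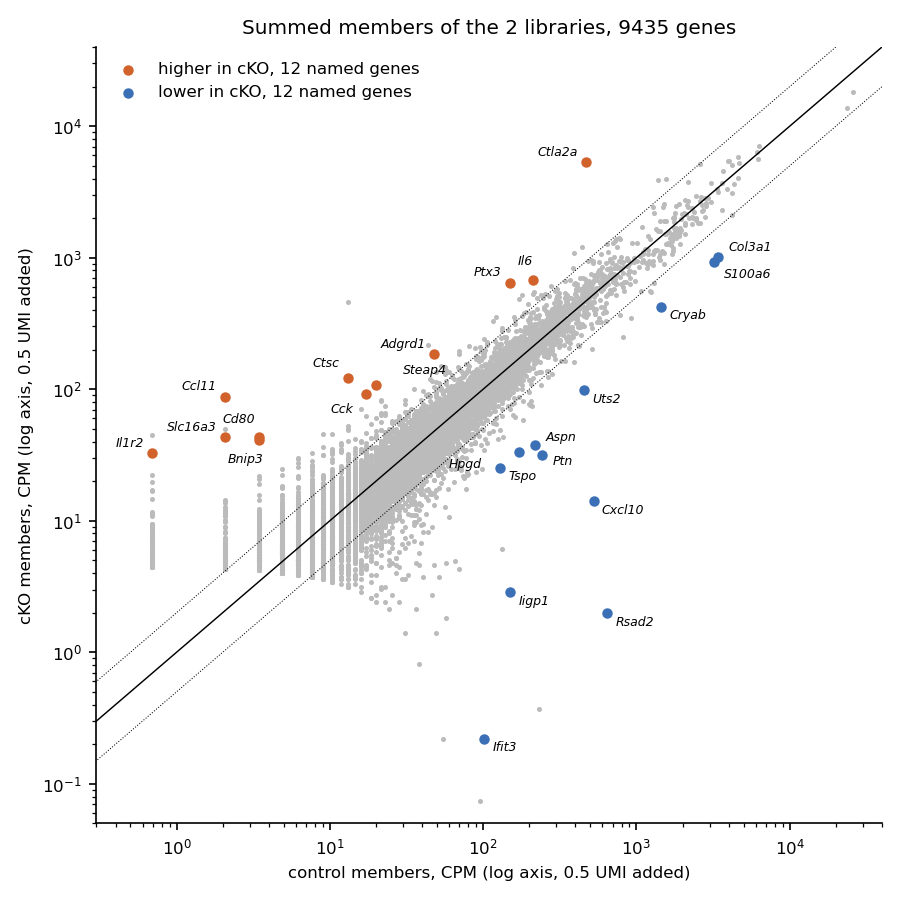
Summed level in CPM of 9435 genes in control members (horizontal) and cKO members (vertical), both log axes with 0.5 UMI added. The solid line marks equal levels, the dotted lines a 2-fold difference, and coloured points are the 12 genes ranked highest and the 12 ranked lowest in cKO; Ctla2a stands out at the upper end of the levels and Rsad2 and Ifit3 far below the line.

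The gene with the most UMIs among those higher in cKO members was Ctla2a, which encodes an inhibitor of cathepsin-like cysteine proteases. Its level was 466 CPM in control members and 5327 CPM in cKO members, an 11.4-fold difference (10.3 to 12.8). Cell by cell, the lowest member had 0 CPM in both libraries, the median was 41.6 CPM in control and 1768 in cKO, and the highest 7194 and 75183. The ranges overlapped, and 51.3% of control and 85.04% of cKO members held a UMI. In other fibroblasts Ctla2a was 6.31-fold higher in cKO (6.06 to 6.56), and in cell-free barcodes it had 137 and 997 CPM.

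Several of the 12 genes were near 0 in control members. Ccl11, which encodes the eosinophil chemoattractant eotaxin, had 1 UMI in control and 597 in cKO members, a ratio of 63.4 (11.3 to 2508), and was found in 24.1% of cKO members. Il1r2, the decoy receptor for interleukin-1, had 0 and 221 UMIs and was at least 7.82-fold higher. Ctsc, which encodes cathepsin C, had 9 and 831 UMIs, 12.5 and 122 CPM (9.80-fold, 5.14 to 21.5), in 10.3% and 52.6% of members. Cd80, a T cell co-stimulatory ligand gene, had 2 and 294 UMIs (ratio 15.6, 4.28 to 130) in 67 cKO members. Its 43.2 CPM in cKO members compares with 34.1 CPM in cell-free barcodes of that library.

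The other genes of the 12 have different known roles. Slc16a3, the lactate exporter MCT4, had 1 and 295 UMIs (ratio 31.3, 5.58 to 1241) and Bnip3, a hypoxia-induced mitophagy gene, 2 and 281 (ratio 14.9, 4.09 to 124). Steap4, a metalloreductase gene, was at 19.4 CPM in control and 108 CPM in cKO (5.60-fold, 3.31 to 10.3). Ptx3, the long pentraxin, had 149 and 646 CPM (4.33-fold, 3.57 to 5.29), with a median cell of 0 CPM in control and 51.5 in cKO. Il6, which encodes interleukin-6, had 212 and 682 CPM (3.22-fold, 2.74 to 3.81), with 45.1% of the control UMIs in 1 cell, and its log2 ratio was -0.092 when 4 rule genes were required, which left 7 control members. Cck, the cholecystokinin gene, had 12 and 622 UMIs (5.50-fold, 3.13 to 10.7), of which 1 cell held 83.3% in control and 32.3% in cKO. The twelfth gene was the rule gene Adgrd1, 3.93-fold higher (2.79 to 5.69), a value that the choice of members bears on and that supports nothing further.

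Cytokine and chemokine genes were more often higher than lower in cKO members. Of 15 cytokine and chemokine genes measured, 7 were at least 2-fold higher in cKO members and 1 was lower, where 7.18% and 5.68% of all genes were. They had a median log2 ratio of 0.92, against -0.02 over all genes. The same genes had a median of 0.08 in other fibroblasts. In members the median was -0.11 after thinning to 5000 UMIs, with 23 control members, of which 15 were members before thinning and 8 had entered. Of the smooth muscle markers, 3 of 7 were also at least 2-fold higher in cKO members, and their part in this result was not tested. Ccl2, the monocyte chemoattractant, had 1379 CPM in control members and 3878 CPM in cKO members (2.81-fold, 2.64 to 3.00) and a ratio of 1.04 in other fibroblasts. Ccl7, a related chemokine, had 389 and 1090 CPM (2.80-fold, 2.49 to 3.17), against a ratio of 0.821 in other fibroblasts. Cxcl2, a neutrophil chemoattractant, had 9 and 3141 UMIs, 12.5 and 461 CPM (37.1-fold, 19.5 to 81.1), but cell-free barcodes held more of it, 368 CPM in control and 670 CPM in cKO, which kept it out of the 12 ranked genes. The epithelial-type cytokine Tslp had 3 and 168 UMIs (ratio 5.95, 2.00 to 29.1), and Il33, the ligand of the receptor encoded by Il1rl1, had 0 and 64 UMIs. Csf1, which encodes the macrophage growth factor, was at 1218 and 1383 CPM (1.14-fold).

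Interferon-response genes lay in the opposite direction, with most of their control UMIs in 1 cell. Rsad2, which encodes the antiviral protein viperin, had 646 CPM in control members and 1.91 CPM in cKO members, 338-fold lower in cKO (196 to 640), and 1 of the 39 control cells held 99.6% of its UMIs. Ifit3 had 73 UMIs in control, 97.3% of them in 1 cell, and 1 UMI in cKO. Iigp1, an immunity-related GTPase gene, was 53.5-fold lower with 97.2% of its control UMIs in 1 cell, and Cxcl10, an interferon-induced chemokine gene, 37.6-fold lower with 73.6%. Over the 19 listed genes measured, 13 were at least 2-fold lower in cKO (5.68% of all genes were), none was higher, and the median log2 ratio was -2.42, against -0.99 for the same genes in other fibroblasts. All 33 genes found summed to 3468 CPM in control and 1771 CPM in cKO members. Summed over 29 genes, without B2m, H2-K1, H2-D1 and Bst2, which were left out after their values were seen, control members held 1565 UMIs, of which 1298 (82.9%) lay in 1 cell. The sum was 2165 CPM with that cell and 379 CPM without it, against 109 CPM in cKO. With the richest cell left out gene by gene, the list's median was -0.74. After thinning to 2000 UMIs it was 0.10, with 7 control members, of which 4 were members before thinning and 3 had entered. The class I genes of the same list were not lower: H2-K1 had 357 and 504 CPM (1.41-fold, 1.24 to 1.61) and B2m 526 and 730.5 CPM (1.39-fold, 1.25 to 1.55).

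The other genes ranked lowest in cKO have various known roles. Col3a1, the collagen III gene, had 3402 CPM in control members and 1011 CPM in cKO members, 3.36-fold lower (3.21 to 3.52), with a median cell at 1138 and 480 CPM. Col3a1 belongs to the collagen sum of the rule. In other fibroblasts it was 1.46-fold higher in cKO (1.42 to 1.51). S100a6, a calcium-binding protein gene, had 3189 and 933 CPM (3.42-fold lower, 3.26 to 3.59), in 97.4% and 97.8% of members. Its median cell was at 2758 CPM in control and 754 CPM in cKO, so the difference lay in the level per cell more than in the share of cells.

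Aspn, higher in members than in other fibroblasts, was 5.75-fold lower in cKO members than in control members (4.69 to 7.04), and was found in 59.0% and 28.0% of them. Tspo, the mitochondrial translocator protein gene, had 129 and 25.1 CPM (5.12-fold lower) in 66.7% and 30.5% of members. Hpgd, which encodes the enzyme that inactivates prostaglandins, had 172 and 33.5 CPM (5.12-fold lower, 4.08 to 6.40), and was 3.69-fold lower in other fibroblasts. Cryab, the small heat shock protein alpha B-crystallin, was 3.42-fold lower, and Uts2 4.65-fold lower. Ptn, the heparin-binding growth factor pleiotrophin, was 7.59-fold lower with all members and 3.55-fold lower without the cell richest in it, which held 55.7% of its control UMIs. The log2 ratio of Ptn was 0.43 after thinning to 5000 UMIs, with 23 control members, of which 15 were members before thinning and 8 had entered. Without the 3 collagens of the rule, 1 of 8 collagen genes measured was at least 2-fold higher and none lower (7.18% and 5.68% of all genes), with a median log2 ratio of -0.38 in members and 0.55 for the same genes in other fibroblasts. Col1a1, which the rule used, had 3626 and 2323 CPM in members (ratio 0.640, 0.615 to 0.668), against a ratio of 2.13 in other fibroblasts.

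**Figure D5:**
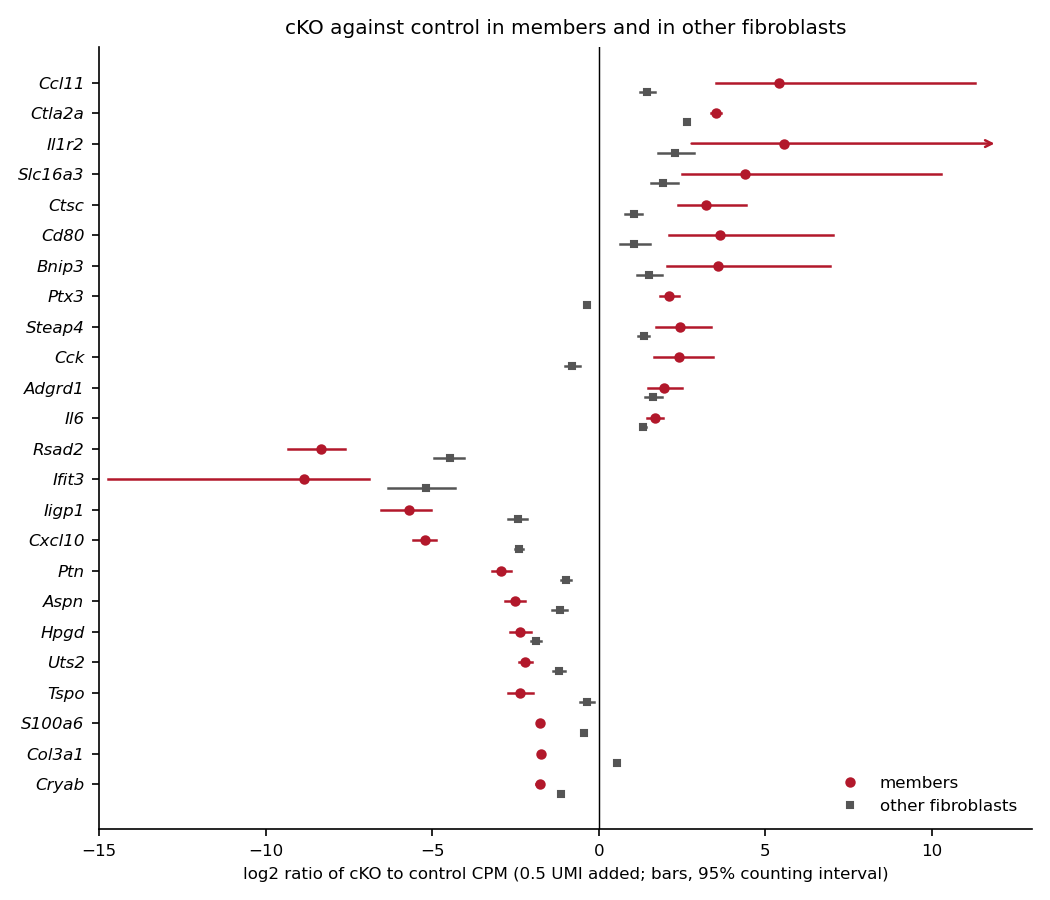
Log2 ratio of cKO to control CPM for the 24 named genes in members (red circles) and in other fibroblasts (grey squares), with 0.5 UMI added and 95% counting intervals as lines; the arrow of Il1r2 marks an interval with no upper limit. Ptx3, Cck and Col3a1 lie on opposite sides of 0 in the 2 populations, and the other 21 on the same side. Adgrd1 and Col3a1 were used by the rule.

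Steroid receptors were present in members of both libraries. Pgr, the progesterone receptor gene, had 645 CPM in control members and 816 CPM in cKO members (1.26-fold, 1.15 to 1.39), and Esr1, for oestrogen receptor alpha, 125 and 168 CPM (1.35-fold, 1.09 to 1.69). None of 10 receptor and partner genes measured passed 2-fold, and their median log2 ratio was -0.07. Against 7.18% higher and 5.68% lower over all genes, of 18 decidualisation and progesterone-response genes measured, 2 were at least 2-fold higher and none lower, with a median of 0.33. Foxo1, a transcription factor of the decidual programme, was one of them, at 105 and 217 CPM (2.06-fold, 1.64 to 2.63). The other was Hsd11b1, a glucocorticoid-activating enzyme gene, with 2 and 80 UMIs. Prlr, the prolactin receptor gene, had 56.7 and 109 CPM (1.93-fold).

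Medians of the lists were mostly small, and 20 of 30 took the other sign under at least 1 alternative, among them those of the steroid receptor, TGF-beta, insulin-like growth factor, planar cell polarity, immediate early and complement lists. Of 24 TGF-beta, BMP and activin genes measured, 1 was at least 2-fold higher and none lower (median log2 ratio 0.05). Inhba, which encodes the activin A subunit, had 1887 and 1548 CPM, Inhbb, the activin B subunit, 724 and 1330 CPM (1.84-fold, 1.68 to 2.01), and Fst, the activin antagonist follistatin, 428 and 707 CPM (1.65-fold, 1.47 to 1.86). Of 8 insulin-like growth factor genes measured, none passed 2-fold. Igf1 had 321 and 264 CPM in members (ratio 0.821, 0.716 to 0.946), against a ratio of 2.78 in other fibroblasts. Of 29 stromal transcription factor genes measured, 4 were higher and 2 lower, where 7.18% and 5.68% of all genes were. Gata6, a zinc finger transcription factor gene, had 69.2 and 28.2 CPM (ratio 0.408, 0.297 to 0.568).

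Wnt pathway genes lay in both directions. Without the rule gene Sfrp4, 12 secreted Wnt inhibitor genes were listed and 5 measured, of which 1 was higher (Dkk2, with 0 and 59 UMIs) and 1 lower (Notum). Frzb, another frizzled-related protein gene, had 147 and 161 CPM, and Notum, which encodes the Wnt deacylase, had 27.7 and 4.41 CPM (ratio 0.159, 0.0875 to 0.296). Rspo3, a Wnt agonist gene, had 9.68 and 32.3 CPM (3.34-fold, 1.59 to 8.40), and Axin2, a canonical Wnt target, 66.4 and 93.9 CPM (1.41-fold, 1.05 to 1.94). Of the 14 planar cell polarity genes measured, to which Prickle1 belongs, 2 were at least 2-fold higher and 1 lower (median -0.05), and in both lists these counts stand against 7.18% and 5.68% of all genes. Ror2, a Wnt5a receptor gene, had 116 and 192 CPM (1.65-fold, 1.33 to 2.09). Tnfsf11, which encodes RANKL, the ligand that osteoprotegerin binds, had 0 UMIs in the members of both libraries.

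Of 22 immediate early genes measured, which dissociation can induce, 4 were higher and 1 lower in cKO, where 7.18% and 5.68% of all genes were, and their median log2 ratio was -0.03. Members had fewer of these UMIs than other fibroblasts, 6977 against 9518 summed CPM in control and 7327 against 9882 in cKO. Of 10 complement genes measured, none was at least 2-fold higher and 1 was lower, with a median of 0.44 in members and -0.63 for the same genes in other fibroblasts. C3 had 339 and 535 CPM (1.58-fold, 1.39 to 1.80) in members.

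The members were not uniform among themselves. After thinning to 2000 UMIs, 38 control and 358 cKO members were left, and 102 of 1391 genes measured had a variance at least 2 times their mean over cells in both libraries. The 10 genes with the highest smaller ratio were Malat1, a nuclear long non-coding RNA, the activin gene Inhba, the heat shock gene Hspa1b, the chemokine genes Ccl2, Cxcl1 and Cxcl5, Thbd, which encodes thrombomodulin, the interleukin-33 receptor gene Il1rl1, the matrix calcification inhibitor gene Mgp and the tenascin C gene Tnc. Inhba had a variance 25.5 times its mean in control and 11.8 times in cKO, and was found in 42.1% and 57.8% of the thinned members. Ccl2 had ratios of 10.8 and 26.7, and its unthinned median was 49.4 CPM in control members and 658 CPM in those of cKO, with highest cells of 8761 and 46361 CPM. Il1rl1, with ratios of 11.2 and 8.0, was found in 21.1% and 18.2% of thinned members, so this gene, ranked among the highest in members, was found in a minority of them.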

How the data were processed

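The authors deposited, for each library, an unfiltered matrix of raw UMI counts per gene and barcode; Cell Ranger 6.1.1 and the mm10 build are named per the submitters' processing notes, while the matrix header names Cell Ranger 4, per the file headers. How reads were aligned and which annotation was used is not given in the sources used here. The matrices listed 1214689 and 1359477 barcodes, and 99.6% of 32285 gene identifiers were found in GENCODE M21, from which gene coordinates were taken.

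Members were chosen by the stated rule, and their counts were summed per library and divided by the summed total (CPM). Intervals are at the 95% level: for a ratio, from the exact binomial distribution of its UMIs given their sum; for a level in CPM, from the exact Poisson distribution; for a share, Clopper-Pearson. A count of 0 was taken to allow 3 counts over the population, and a fold against 0 is a lower bound on that basis. Log2 ratios carry 0.5 UMI. Nothing was tested, since each group was 1 library. Cell-free profiles came from barcodes with at most 100 UMIs. No doublets were removed; scores came from scrublet in scanpy 1.11.5, with 2 simulated doublets per cell. TMM factors came from edgeR 4.0.16 in R 4.3.3, and other steps used Python 3.11.15, numpy 2.4.6 and scipy 1.17.1. The computation was tested on simulated Poisson counts without spread between cells, so it cannot show how well the intervals cover in these data.

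The 12 genes named in each direction were those whose nearer interval limit lay farthest from a ratio of 1. For cKO against control they needed 50 UMIs, detection in 5% of members of the higher library and a level not under cell-free barcodes, and for members against other fibroblasts 50 UMIs in the higher population of each library. Mitochondrial, ribosomal, haemoglobin, immunoglobulin, X-inactivation, Y-linked and predicted genes were left out. Genes of the rule were left out for members against other fibroblasts, but not for cKO against control. Genes of the 38 lists were described by role. The members and lists were chosen with earlier results of these data known. Alternatives were the gene, mitochondrial and collagen limits, 4 rule genes, no Ptprc and Epcam condition, doublet removal, thinning, TMM, averaging cells, subtracting cell-free RNA, gene filters and another pseudocount.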

Additional observations from a re-analysis of the deposited data

Results flagged for a closer look

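Of 24 genes named for a difference between cKO and control members, 3 had a ratio on the opposite side of 1 in other fibroblasts. The difference between the 2 populations was not tested in any of them, since each group was 1 library. The other fibroblasts also differed in make-up between the libraries. Inmt-list cells were 198 of 775 fibroblasts in control and 55 of 1491 in cKO, and Cyp26b1-list cells 13 and 247. The part of this in the ratios of other fibroblasts was not tested. Ptx3, the long pentraxin gene, was 4.33-fold higher in cKO members (149 and 646 CPM) and had a ratio of 0.780 in other fibroblasts (385 and 300 CPM), with 20.4% of the control member UMIs in 1 cell. Without the cell richest in it in each library, the ratio of Ptx3 was 4.79. Cck, the cholecystokinin gene, was 5.50-fold higher in cKO members, from 12 and 622 UMIs, and had a ratio of 0.576 in other fibroblasts, with 83.3% of the control member UMIs in 1 cell. Without such a cell the ratio of Cck was 17.9. Col3a1, the collagen III gene, had a ratio of 0.297 in members (3402 and 1011 CPM) and 1.46 in other fibroblasts (845 and 1238 CPM), with 23.2% of the control member UMIs in 1 cell. Without such a cell Col3a1 was 2.68-fold lower in cKO members. Col3a1 belongs to the collagen sum of the rule, so the choice of cells bears on its values in both populations.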

How the results depend on the processing

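The log2 ratio of the member share, 2.27 as reported, was 3.89 with 4 rule genes (7 and 200 members) and 3.10 after thinning to 2000 UMIs, and kept its direction in each alternative run. Counts of genes at least 2-fold apart moved most with the gene filter. In cKO members against control, 677 higher became 1713 with 4 rule genes, 282 with a filter of 100 UMIs and 4802 with no filter beyond 1 UMI, and 536 lower became 180 after thinning to 2000 UMIs, 168 and 2344 with these filters, and 348 after thinning to 5000 UMIs. Against other fibroblasts, 23 higher became 7 with collagen, Dcn and Lum at 1% and 15 and 124 with the filters. There 186 lower became 283 with 4 rule genes, 354 without the Ptprc and Epcam condition, 324 with cells averaged, 46 and 2739 with the filters and 116 after thinning to 5000 UMIs. A filter tests fewer or more genes by construction; for the other moves the cause was not tested. Genes with a variance at least 2 times their mean fell from 102 to 48 at 1000 UMIs.

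Of 24 genes named for cKO against control, 2 turned direction, Il6 and Ptn, and of 24 named against other fibroblasts, 3. Of 30 list medians, 20 took the other sign under at least 1 alternative, 3 of them with a reported size of at least 0.5 (interferon response, cytokines, and Wnt ligands and Rspo). With 4 rule genes 13 of 25 medians did so, among them steroid receptors (0.34), planar cell polarity (0.51), immediate early (0.44), TGF-beta (-0.11) and insulin-like growth factor genes (-0.08), and after thinning to 5000 UMIs 12 of 25, among them cytokines (-0.11) and complement (-0.01). Without the Ptprc and Epcam condition, Wnt ligands and Rspo turned from 0.51 to -0.25. With 4 rule genes, which leaves 7 control cells, the log2 ratio of Il6 was -0.092, the smaller log2 ratio against other fibroblasts was -4.10 for Il1rl1, -0.86 for Tm4sf1 and -1.23 for Slco2a1, and the interferon-response median, -2.42 as reported, was 0.82. That median was 0.31 with collagen, Dcn and Lum at 1% and 0.10 after thinning to 2000 UMIs, and Ptn was 0.43 after thinning to 5000 UMIs. TMM shifted log2 ratios of cKO to control by 0.098. Thinning to 5000 UMIs and leaving out the cell richest in a gene were chosen after seeing the data, and 65 gene and setting pairs had too few counts for a value. No paired analysis was possible because each group was 1 library. The 722794 UMIs of 39 control members limit the precision, and how animals differ cannot be seen.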
